A study of Mus musculus with 18 samples.

Results

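The 40 genes described here encode the transporters and enzymes that take glucose to lactate, the proteins that sense oxygen, and genes commonly induced by low oxygen. They were chosen by name and matched by mouse Entrez gene ID, and all 40 of 40 were found among the 36528 genes listed. All 40 also passed the filter on low counts that left 16875 genes for testing.

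RNA sequencing libraries were made from mouse embryonic stem cells, 18 in all, as 6 groups of 3. The groups were wild-type cells (BAP1 wt), a conditional BAP1 knockout line left untreated (the BAP1 knockout control), the same line given 4-hydroxytamoxifen (BAP1 knockout), an untreated C91A line (the BAP1 C91A control), the C91A line given the drug (knock-in BAP1 C91A mutant), and an RNF2-BAP1 double knockout given the drug. The drug, 100 nM for 4 days, switches on a Cre recombinase that rearranges the target genes, and every culture also received emricasan, a blocker of caspases, the proteases of programmed cell death. BAP1 removes ubiquitin from histone H2A, C91 is the cysteine its catalysis depends on, and RNF2 is a ligase that places ubiquitin on H2A. Each mutant and its control therefore differ in the drug and in Cre activity as well as in the allele, and the double knockout has no untreated library of its own among those analysed here. The number of clones behind a line, what drives the Cre and whether wild type received the drug are not in the sources used here. Nothing in the labels says that the 3 libraries of a group came from separate cultures, so p-values measure the spread between libraries, which may be technical.

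Glycolysis splits glucose into pyruvate with a small yield of ATP, and lactate dehydrogenase can then reduce pyruvate to lactate for export. Pyruvate dehydrogenase kinases (PDK1 to PDK3) hold pyruvate back from the mitochondria by inactivating pyruvate dehydrogenase. HIF-1 alpha (Hif1a) is a transcription factor held down mainly at the protein level: in oxygen, EGLN prolyl hydroxylases mark it for destruction, and in low oxygen it accumulates and induces glycolytic genes, PDK1, EGLN3 and VEGF. Mouse embryonic stem cells rely strongly on glycolysis, alongside mitochondrial respiration.

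HIF binds DNA at a core spelled ACGTG or GCGTG, so the 250 bases before the RefSeq start (GRCm38.p6, the most upstream start listed) were searched for both spellings on both strands. A CACGTG counts as 2 overlapping matches. Ndrg1 and Slc2a3 have no entry in the promoter table used. Of the other 38 members, 30 (78.9%) held a match, against 55.2% of the 12307 tested genes with a listed promoter. ACGTG alone stood in 50.0% of member promoters and in 21.3% of those 12307. Of the 38 member starts, 32 matched the beginning of an annotated transcript. The windows of Hif1a, Eno3, Pfkfb4 and Ldha ended 6543, 4051, 3630 and 3530 bases inside the annotated gene. A match is a run of letters, not a measured site. The promoters printed below are examples. Pdk1 and Egln3 fell most after knockout, Slc2a1 moved in opposite directions with the 2 alleles, and Eno2 rose with both. Capitals mark matches to either core on either strand.
Pdk1: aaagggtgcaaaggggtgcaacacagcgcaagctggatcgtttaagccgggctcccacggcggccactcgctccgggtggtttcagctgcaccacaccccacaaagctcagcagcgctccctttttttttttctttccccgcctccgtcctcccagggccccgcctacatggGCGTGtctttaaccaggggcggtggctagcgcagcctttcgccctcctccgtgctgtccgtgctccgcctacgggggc
Egln3: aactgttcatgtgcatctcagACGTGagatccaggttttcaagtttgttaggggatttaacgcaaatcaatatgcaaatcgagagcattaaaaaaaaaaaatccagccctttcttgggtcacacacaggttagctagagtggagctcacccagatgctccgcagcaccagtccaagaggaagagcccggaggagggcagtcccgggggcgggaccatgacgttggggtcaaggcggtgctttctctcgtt
Slc2a1: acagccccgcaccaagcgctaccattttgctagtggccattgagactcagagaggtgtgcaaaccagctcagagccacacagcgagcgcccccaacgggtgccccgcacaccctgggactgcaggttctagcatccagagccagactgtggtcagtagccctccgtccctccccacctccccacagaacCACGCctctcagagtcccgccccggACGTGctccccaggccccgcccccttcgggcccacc
Eno2: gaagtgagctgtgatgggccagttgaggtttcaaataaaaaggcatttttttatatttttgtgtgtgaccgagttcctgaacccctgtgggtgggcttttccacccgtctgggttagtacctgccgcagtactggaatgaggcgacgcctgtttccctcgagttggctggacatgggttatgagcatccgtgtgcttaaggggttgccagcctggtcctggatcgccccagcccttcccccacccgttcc
The Pdk1 window (chr2:71872974-71873223, plus strand, its last 9 bases inside the annotated gene) held 1 GCGTG, whose first base lies at -78 from the start. The Egln3 window (chr12:54203875-54204124, minus strand) held 1 ACGTG at -229. In Slc2a1 (chr4:119108495-119108744, plus strand) the matches at -61, read on the other strand, and at -36 were 1 of each core. The Eno2 window (chr6:124769674-124769923, minus strand) held neither spelling. Of the other members that rose with both alleles, Pfkfb3 held 1 match, Slc16a1 held 4 and Hif1a held 3. Among members that fell with both alleles, Hk1, Aldoa, Tpi1, Pkm and Mxi1 held none. The windows of Aldoa, Mxi1 and Hk1 ended 547, 378 and 12 bases inside the annotated gene.

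In megacounts (M), the libraries held 8.11 to 23.0 M uniquely aligned reads, with the fewest on average after BAP1 knockout (12.7 M). Beyond counting error, replicates differed by a coefficient of variation of 4.47%, a common value fitted over genes. Small changes in abundant genes therefore pass the test, while rare genes also carry counting error. Levels of 1 gene across libraries are in CPM (counts per 1 M counts of the library, scaled by TMM). A change is given as a log2 fold change and its standard error (SE). As a check of labels, Bap1 stood at 151, 147 and 152 CPM in the knockout libraries against 170.0, 167 and 169 in their control, at 93.8, 84.8 and 88.0 in the untreated C91A line and at 163, 166 and 166 in the mutant. Rnf2 stood at 77.4, 75.6 and 70.6 CPM in the double knockout and at 114, 127 and 128 in the knockout. Counts over a whole gene check a deleted exon or a point mutation only in part. The 10 embryonic stem cell markers summed to 2929 to 3002 CPM in the C91A mutant, the lowest group. They summed to 4460.1 to 4573 in the untreated knockout line and 4417 to 4638 in the double knockout, whose ranges overlap, and none was at 0 in any group.

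On the length-scaled scale (nRPKM), which allows levels of different genes to be set side by side, 32 members can be ordered in wild type, leaving out the 8 that share much sequence with other genes, given next. They were led by Aldoa at 1266 ± 80.1 (SD, n = 3) and Slc2a3 at 407 ± 7.09. Ldha (275 nRPKM), Tpi1 (232), Slc2a1 (170.5), Pfkl (152) and Gpi1 (144) followed. Pfkfb4 (1.31 nRPKM) and Car9 (0.831) were the lowest of the 32.

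Several of the low levels belong to genes that share sequence with other genes, and only uniquely aligned reads were counted. Gapdh, usually among the most abundant messages of a cell, stood at 4.95, 5.55 and 5.91 CPM in wild type. Of its 50-base stretches, the read length used here, 25.1% also occur in transcripts of 223 other genes, 213 of them pseudogenes. The share was 53.9% for Pgk1, 47.2% for Bnip3, 36.2% for Pgam1, 26.0% for Eno1, 25.8% for Pkm, 24.4% for Higd1a and 21.0% for Ldhb. These shares come from annotated transcripts alone and are lower bounds, and whether and how much they lower each level was not tested. Levels of these 8 members, and isozyme shares that use them, are not comparable with those of the other 32, and their changes carry the same uncertainty. Some of the other 32 also share sequence, such as Ankrd37 (17.0%), Gpi1 (15.8%) and Ldha (9.26%, with 328 other genes). Levels of such members carry this limit too.

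**Figure D1:**
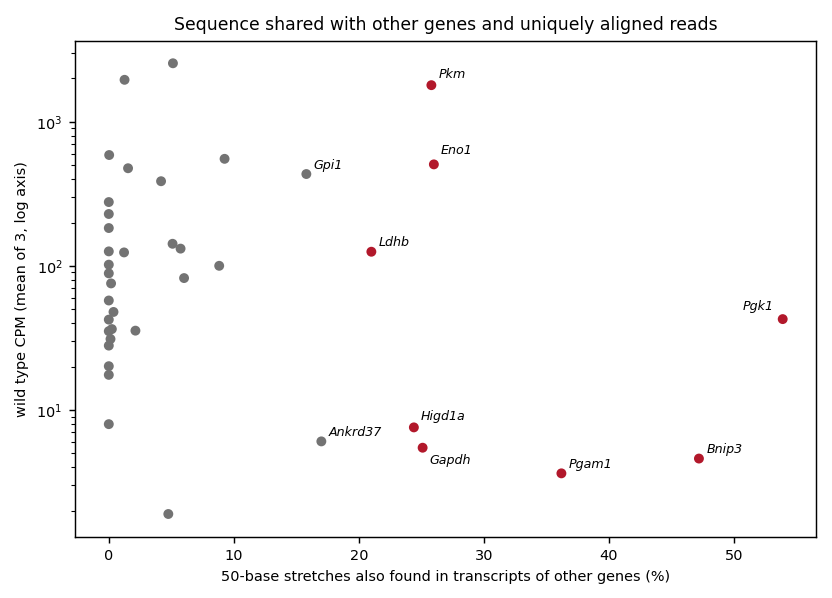
Share of each member's 50-base stretches that also occur in transcripts of other genes (horizontal axis, %) against its mean CPM in wild type (vertical log axis, n = 3). The 8 members in red share at least 20%. Gapdh, Pgam1, Bnip3 and Higd1a lie under 10 CPM, while Pkm and Eno1 lie above 400 CPM.

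After BAP1 knockout more members were lower than higher: 22 of 40 members were lower than in the untreated line and 6 were higher, by the quasi-likelihood test in edgeR (p-values adjusted by Benjamini and Hochberg over all genes tested). Over all tested genes 30.3% were lower and 31.3% higher. The median log2 fold change of the 40 was -0.31, beside -0.0061 over all genes. At least 2-fold, 7 members fell and 2 rose, beside 10.5% and 4.81% of all genes. In the C91A mutant 20 members were lower and 9 higher than in their untreated line, with 26.4% lower and 28.6% higher among all genes, and the median was -0.20 beside -0.0066. At least 2-fold, 3 members fell and 1 rose there, beside 6.36% and 4.7% of all genes. Below, values in parentheses are such changes, and "both alleles" or "both mutants" means BAP1 knockout and C91A. In bulk RNA, fewer cells of a type and less RNA per cell cannot be told apart.

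These comparisons share no library. The same 18 members fell in both, which is 81.8% of those lower after knockout and 90.0% of those lower in the C91A mutant. Over all genes, 63.9% and 73.3% of the lower genes were shared, and 19.3% of all tested genes fell in both. All 6 members higher after knockout were also among the 9 higher in the C91A mutant, which is 100.0% and 66.7% of these. Over all genes, 66.6% and 72.9% of the higher genes were shared, and 20.9% of all tested genes rose in both. These 6 were Slc2a3, Eno2, Pfkfb3, Slc16a1, Ndrg1 and Hif1a.

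Marker sums of other cell types moved between the same libraries. The 12 fibroblast markers, for feeder cells, summed to 35.0 to 36.4 CPM in the untreated knockout line and 59.6 to 65.5 after knockout, and to 39.1 to 39.7 and 87.8 to 90.1 in the C91A line without and with the drug; Lum was at or near 0 in every group. The 8 trophoblast markers, most of whose sum in both mutants was Krt18, summed to 272 to 290.1 CPM before and 415 to 422 after knockout. In the C91A line they summed to 616 to 649 without and 1180.4 to 1289 with the drug. Without Krt18, the other 7 summed to 145 to 153 CPM before and 147 to 156 after knockout, which overlap. In the C91A line these 7 summed to 259 to 265 without and 345 to 373 with the drug. Elf5, a defining trophoblast factor, was at 0 in the knockout and near 0 in the C91A mutant. The 9 endoderm markers summed to 100.2 to 107 CPM before and 125 to 136 after knockout, and to 156 to 172 and 136 to 143 in the C91A line, with Ttr at 0 throughout. Most of that sum was Lama1, and the other 8 summed to 11.6 to 13.6 and 19.3 to 20.5 in the knockout line and 18.6 to 19.99 and 29.6 to 32.2 in the C91A line, where Lama1 itself stood at 137 to 152 and 106 to 112. The 8 neuroectoderm markers stood at 107 to 112 and 136 to 148 in the knockout line and at 118 to 129.8 and 161 to 171 in the C91A line. Without Nes, the other 7 summed to 81.7 to 85.8 and 86.8 to 92.3, and to 79.0 to 84.6 and 68.7 to 74.1, the last below its control. The 8 mesoderm markers stood at 18.2 to 19.3 and 15.5 to 19.2, and at 53.9 to 55.9 and 47.5 to 52.3. The 10 stem cell markers summed to 3743 to 4146 CPM in the untreated C91A line and 3617 to 3759.7 after knockout, beside the values above. The part of these cell types in the changes below was not tested.

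**Figure D2:**
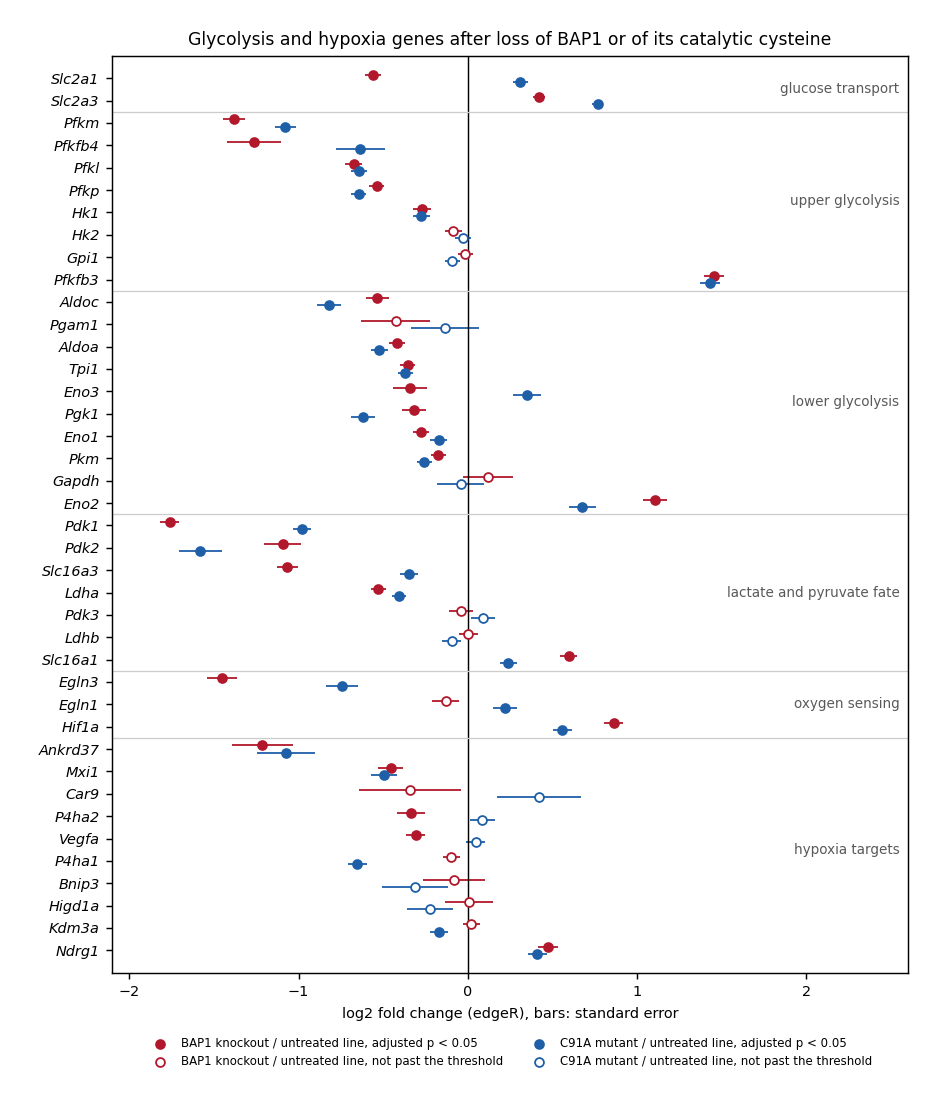
Log2 fold change (horizontal axis, bars are standard errors) of each of the 40 members after BAP1 knockout (red) and in the C91A mutant (blue), each against its untreated line with n = 3 per group. Filled points passed an adjusted p of 0.05. The 2 alleles point apart for Slc2a1 and Eno3, and Pfkfb3 lies near 1.4 for both.

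GLUT1 (Slc2a1) and GLUT3 (Slc2a3) carry glucose into cells, and the 2 genes moved in opposite directions after knockout. Slc2a1 stood at 537, 524 and 548 CPM in the untreated line and 368, 350.4 and 371 after knockout. In the C91A line it stood at 604, 597 and 590.1 without and 706, 759 and 757 with the drug. Knockout libraries were lowest and C91A mutant libraries highest of all 6 groups, without overlap. The change was -0.56 (SE 0.05, adjusted p = 6.4e-14) in the knockout and 0.31 (SE 0.04, adjusted p = 1.4e-07) in the C91A mutant. Slc2a3 rose with both alleles, from 2207, 2217 and 2274 to 3003, 2944 and 3018 CPM with knockout and from 1899, 2052 and 1945 to 3326, 3289 and 3418 in the C91A line. Its changes were 0.42 (SE 0.03, adjusted p = 6.2e-14) and 0.77 (SE 0.03, adjusted p = 7.0e-22). On the nRPKM scale, Slc2a1 made up 29.2% of the pair in the untreated knockout line and 17.3% after knockout, and 34.3% and 27.6% in the C91A line without and with the drug. In the double knockout Slc2a1 stood at 476, 548 and 527 CPM, above every knockout library (0.51, SE 0.05, adjusted p = 1.0e-12), and Slc2a3 at 2544, 2572 and 2590.1, below every one (-0.22, SE 0.03, adjusted p = 6.0e-07).

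Among the 8 upper glycolysis members, 5 fell and 1 rose with each allele. Over all tested genes, 30.3% fell and 31.3% rose after knockout, and 26.4% fell and 28.6% rose in the C91A mutant. The 3 phosphofructokinase subunits, which catalyse the committed step of glycolysis, all fell with both. Pfkm, the muscle-type subunit, stood at 95.8, 104 and 100.1 CPM in wild type, 96.0, 94.3 and 95.2 in the untreated knockout line and 37.5, 35.8 and 36.2 after knockout. The gene went from 87.6, 87.4 and 92.3 in the untreated C91A line to 37.6, 44.3 and 44.4 in the mutant, and stood at 66.1, 77.8 and 74.8 in the double knockout. Libraries of both mutants lay below those of every other group, and the double knockout lay between. The changes were -1.38 (SE 0.07, adjusted p = 2.0e-21) after knockout, -1.08 (SE 0.06, adjusted p = 1.7e-18) in the C91A mutant and 0.997 (SE 0.07, adjusted p = 1.3e-16) from knockout to double knockout. Pfkl, the liver-type subunit and by length-scaled level the main one, fell with both alleles (-0.68, SE 0.05, and -0.64, SE 0.05). Pfkp, the platelet-type subunit, went from 180.3, 182 and 188 to 126, 128 and 126 CPM (-0.54, SE 0.05, adjusted p = 1.2e-13) and from 184, 183 and 187 to 118, 119 and 118 (-0.65, SE 0.04, adjusted p = 5.2e-16). It stood at 198, 199 and 214 in the double knockout, above every other library, and was higher there than in the knockout (0.69, SE 0.05, adjusted p = 5.7e-17). Pfkm was 14.6% of the summed nRPKM of the 3 subunits before and 9.44% after knockout, 15.1% and 11.6% in the C91A line, and 15.2% in the double knockout. Pfkm and Pfkp exons overlap genes on the opposite strand (Senp1 and Pitrm1), and the sources used here do not give whether counting used strand. Pfkm exons also overlap a gene on the same strand.

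Of the enzymes that make and remove fructose 2,6-bisphosphate, the strongest activator of phosphofructokinase, 2 are members, and they moved apart. Pfkfb3, whose product mainly makes it, stood at 42.0, 42.1 and 43.5 CPM in the untreated knockout line and 114, 117 and 118 after knockout. In the C91A line it went from 44.6, 47.2 and 45.3 to 119, 122 and 129, and it stood at 50.9, 50.4 and 42.4 in wild type and 36.4, 38.4 and 36.4 in the double knockout. The mutants of both alleles lay above 100 CPM and every other library under 51 CPM. Its changes were 1.45 (SE 0.06, adjusted p = 1.5e-23) after knockout, 1.43 (SE 0.06, adjusted p = 3.2e-23) in the C91A mutant and -1.65 (SE 0.06, adjusted p = 5.5e-25) from knockout to double knockout. Pfkfb4 was low throughout, at 8.57, 7.09 and 9.02 CPM before and 3.51, 3.04 and 3.55 after knockout, and 6.99, 6.63 and 8.27 and 4.61, 3.96 and 5.31 in the C91A line. It fell in both (-1.26, SE 0.16, adjusted p = 7.7e-09, and -0.63, SE 0.15, adjusted p = 0.00033), and stood at 6.67, 6.72 and 7.97 in the double knockout, above every knockout library (1.07, SE 0.17, adjusted p = 4.9e-07).

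Hexokinase traps glucose in the cell as glucose 6-phosphate. Hk2, the more abundant hexokinase by nRPKM, stood at 201, 206 and 218 CPM before and 192, 199.5 and 197 after knockout and at 240.3, 248 and 240.5 and 228, 238 and 247 in the C91A line. Neither change passed (-0.09, SE 0.05, adjusted p = 0.12, and -0.03, SE 0.05, adjusted p = 0.62), although the first did with only the groups compared (-0.11, adjusted p = 0.0148 by edgeR). Hk1 fell in both (-0.27, SE 0.05, adjusted p = 3.1e-05, and -0.28, SE 0.05, adjusted p = 9.3e-06). Gpi1, the isomerase after hexokinase, was not called with either allele, except in C91A without replicate 2 of the untreated line (-0.12) or of the mutant (-0.13). It was lower in the double knockout than in the knockout, at 347, 379 and 367 against 529.5, 502 and 519.7 CPM (-0.51, SE 0.05, adjusted p = 1.0e-12).

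**Figure D3:**
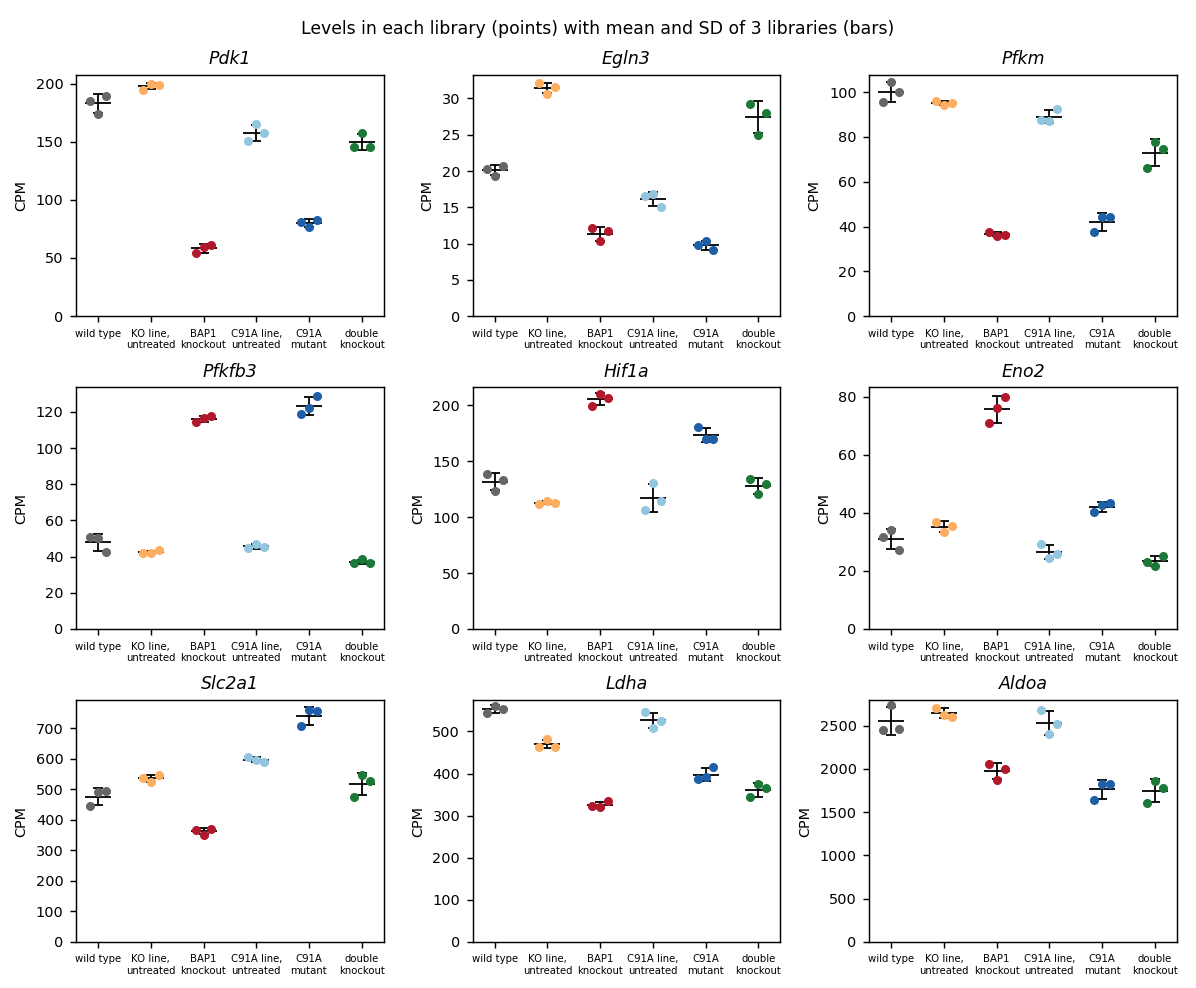
CPM (vertical axes, from 0) in each library for 9 members, with the mean and SD of the 3 libraries of each group. Pdk1, Egln3 and Pfkm are lowest in the 2 mutant groups, and Pfkfb3 and Hif1a are highest there. Double knockout libraries lie above the knockout for the first 3 and below it for the other 2, and under every wild-type library for Ldha and Aldoa.

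In lower glycolysis, 7 of 10 members fell and 1 rose after knockout, and 6 fell and 2 rose in the C91A mutant. The shares of all tested genes were 30.3% and 31.3% after knockout and 26.4% and 28.6% in the C91A mutant. Aldoa, the main aldolase, went from 2706, 2625 and 2593 to 2056, 1873 and 1993 CPM (-0.42, SE 0.05, adjusted p = 7.1e-10) and from 2679.6, 2398 and 2515 to 1636, 1825 and 1826 (-0.52, SE 0.05, adjusted p = 3.4e-12). Aldoc, the brain-type aldolase, went from 67.4, 65.6 and 66.1 to 47.0, 40.6 and 48.4 (-0.53, SE 0.07, adjusted p = 8.7e-09) and from 62.6, 58.1 and 58.7 to 36.7, 31.0 and 33.9 (-0.82, SE 0.07, adjusted p = 2.7e-13). Each mutant lay below its control without overlap for both genes. Tpi1, the triose phosphate isomerase, fell in both (-0.36, SE 0.04, and -0.37, SE 0.04), as did Pgk1, an ATP-yielding kinase (-0.32, SE 0.07, and -0.62, SE 0.07). Pkm, the pyruvate kinase that makes the final ATP, went from 1845, 1798 and 1814 to 1674, 1560.1 and 1605 CPM (-0.17, SE 0.04, adjusted p = 0.00082) and from 1867, 1645 and 1755 to 1393, 1518 and 1491 (-0.26, SE 0.04, adjusted p = 3.8e-06). Gapdh and Pgam1 did not pass with either allele (0.12, SE 0.15, and -0.43, SE 0.20 after knockout), but Pgam1 passed after knockout under 3 of 11 alternatives: with only the groups compared (-0.45), without replicate 2 of the untreated line (-0.52) and without replicate 1 of the knockout (-0.57).

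The enolases, which make phosphoenolpyruvate, split. Eno1, the common form, fell in both (-0.28, SE 0.05, and -0.17, SE 0.05). Eno2, the neuronal form, stood at 37.0, 33.4 and 35.4 CPM before and 70.9, 76.1 and 80.1 after knockout and at 29.2, 24.5 and 25.7 and 40.2, 42.6 and 43.3 in the C91A line. It rose in both, more after knockout (1.11, SE 0.07, adjusted p = 9.1e-17) than in the C91A mutant (0.68, SE 0.08, adjusted p = 1.0e-09), and the difference passed (0.43, SE 0.11, adjusted p = 0.0023). Its share of enolase nRPKM went from 4.08% to 9.98% and from 3.17% to 5.46%. In the double knockout it stood at 23.1, 21.8 and 25.2 CPM, the lowest of the groups on average and lower than in the knockout (-1.69, SE 0.08, adjusted p = 7.0e-22). Eno3, the muscle form, fell after knockout, from 19.4, 20.5 and 22.6 to 16.9, 17.2 and 15.5 CPM (-0.34, SE 0.10, adjusted p = 0.0035). In the C91A mutant it rose, at 36.3, 42.6 and 41.7 against 36.3, 30.2 and 28.6 CPM (0.35, SE 0.08, adjusted p = 0.00046), with 1 untreated library level with the lowest mutant one.

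Summed over the 16 glycolytic enzymes from hexokinase to pyruvate kinase, the length-scaled level was 2909, 2829 and 2802 nRPKM in the untreated knockout line and 2349, 2184 and 2305 after knockout. It was 2900.3, 2618 and 2743 in the untreated C91A line, 1957, 2155 and 2155 in the mutant, 2656, 2908 and 2679.5 in wild type and 1890.0, 2166 and 2075 in the double knockout. All 9 libraries of the 3 mutant groups lay below all 9 of the others. Aldoa and Pkm make up most of this sum, so it follows them more than the rest, and Pkm is among the members with shared sequence.

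Of the 7 members that settle the fate of pyruvate, 4 fell and 1 rose with each allele. The shares of all tested genes were 30.3% and 31.3% after knockout and 26.4% and 28.6% in the C91A mutant. Pdk1 had the largest fall of the 40 after knockout. It stood at 185, 174 and 189.7 CPM in wild type, 195, 199.8 and 199 in the untreated knockout line and 53.8, 59.7 and 61.1 after knockout. It went from 151, 165 and 157 in the untreated C91A line to 81.3, 76.6 and 82.3 in the mutant, and stood at 145, 158 and 146 in the double knockout. The knockout libraries were lowest, the C91A mutant next, and all other libraries lay above both. The changes were -1.76 (SE 0.05, adjusted p = 1.4e-27), -0.98 (SE 0.05, adjusted p = 1.1e-19) and, from knockout to double knockout, 1.36 (SE 0.06, adjusted p = 1.2e-23).

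Pdk2 fell most in the C91A mutant. It went from 17.2, 13.9 and 12.4 to 4.89, 4.77 and 4.82 CPM there (-1.58, SE 0.13, adjusted p = 5.5e-14), and from 22.9, 24.6 and 23.4 to 9.63, 12.4 and 11.4 after knockout (-1.09, SE 0.11, adjusted p = 1.4e-11). C91A mutant libraries lay below all others. Pdk3 did not pass with either allele, at 35.5, 38.4 and 37.1 CPM before and 31.4, 39.0 and 37.7 after knockout (-0.04, SE 0.07, adjusted p = 0.64) and 34.3, 34.9 and 32.7 and 36.3, 36.3 and 36.0 in the C91A line (0.09, SE 0.07, adjusted p = 0.27). Pdk3 made up 30.1% of the summed nRPKM of the 3 kinases before and 55.5% after knockout, 34.4% and 54.2% in the C91A line, and 36.4% in the double knockout, beside 35.9% in wild type.

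Ldha, the lactate dehydrogenase subunit that dominates in glycolytic cells, stood at 544, 562 and 554 CPM in wild type. It went from 464, 481 and 464 to 323, 319.8 and 334 with knockout (-0.53, SE 0.04, adjusted p = 2.4e-14) and from 545, 509 and 525 to 387, 391 and 415 in the C91A line (-0.40, SE 0.04, adjusted p = 3.8e-11). Double knockout libraries stood at 343, 375 and 366, above the knockout (0.15, SE 0.04, adjusted p = 0.0019) and below wild type (-0.61, SE 0.04, adjusted p = 2.0e-16). Ldhb, the heart-type subunit, did not pass with either allele (0.00, SE 0.06, and -0.10, SE 0.06). In the double knockout it stood at 65.5, 75.3 and 68.4 CPM against 155, 149 and 170.0 in the knockout and 130.1, 134 and 113 in wild type (-1.19, SE 0.06, adjusted p = 1.5e-20, and -0.85, SE 0.06, adjusted p = 5.4e-16). Ldha was 66.8% of the pair's nRPKM in the untreated knockout line, 58.3% in the knockout and 77.9% in the double knockout.

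The lactate transporters MCT1 (Slc16a1) and MCT4 (Slc16a3) moved apart. Slc16a3 went from 98.9, 99.2 and 95.5 to 50.5, 41.8 and 47.0 CPM with knockout (-1.07, SE 0.06, adjusted p = 4.9e-19) and from 119, 113 and 115 to 86.8, 93.2 and 92.4 in the C91A line (-0.35, SE 0.05, adjusted p = 5.5e-07). The fall after knockout was the deeper of the 2 (-0.72, SE 0.08, adjusted p = 4.9e-09). Slc16a1 rose, from 231, 239 and 245 to 352, 367 and 362 CPM (0.60, SE 0.05, adjusted p = 1.4e-13) and from 219, 247 and 229 to 297, 259 and 265 (0.24, SE 0.05, adjusted p = 0.0001). Slc16a3 went from 41.4% to 18.1% of the pair's nRPKM with knockout.

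**Figure D4:**
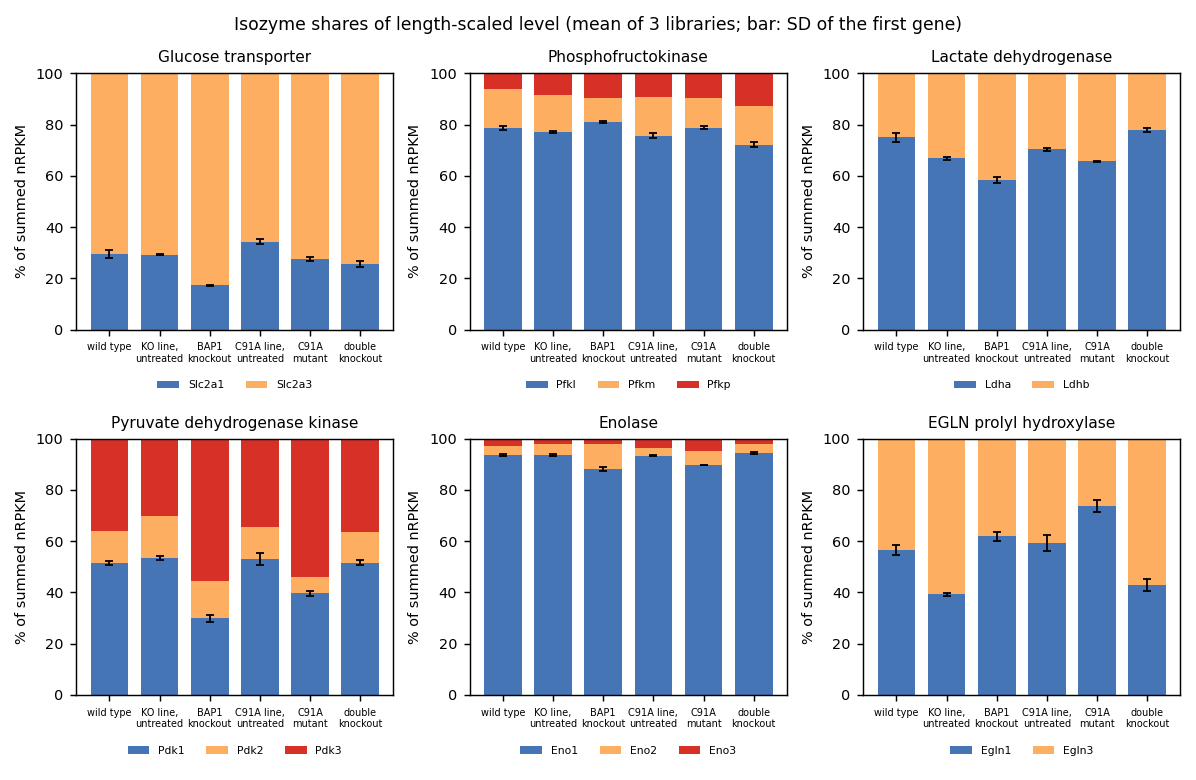
Share of each gene in the summed nRPKM of the members of its family (vertical axes, %), as the mean of 3 libraries in each of the 6 groups, with the SD of the bottom gene. Pdk3 makes up 55.5% and 54.2% of the kinase level in the knockout and the C91A mutant, and Slc2a1 17.3% of the transporter level after knockout. Eno1, Ldhb and Ldha carry the limit on shared sequence given above.

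Hif1a transcripts rose with both alleles, while genes induced by HIF or low oxygen moved in both directions. Pdk1, Egln3 and Ankrd37 fell with both alleles, and Ndrg1 rose with both. Of 37 further HIF pathway and hypoxia-induced genes, 18 rose and 11 fell after knockout, beside 31.3% and 30.3% of all tested genes. Hif1a stood at 139, 124 and 133 CPM in wild type, 112, 115 and 112 in the untreated knockout line and 199.5, 210.0 and 207 after knockout. It went from 106, 131 and 115 in the untreated C91A line to 181, 169.8 and 169.8 in the mutant, and stood at 134, 120.4 and 129.9 in the double knockout. Both mutants lay above all other libraries, and the double knockout overlapped wild type. The changes were 0.86 (SE 0.06, adjusted p = 4.1e-17) and 0.56 (SE 0.06, adjusted p = 1.8e-11) with the alleles, -0.68 (SE 0.06, adjusted p = 6.0e-14) from knockout to double knockout, and -0.04 (SE 0.05, adjusted p = 0.6) between double knockout and wild type. Its annotated exons overlap an antisense gene and a same-strand gene, and no protein was measured.

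Egln3, the prolyl hydroxylase induced by HIF, fell with both alleles. It stood at 20.3, 19.4 and 20.7 CPM in wild type, 32.1, 30.7 and 31.5 in the untreated knockout line and 12.2, 10.3 and 11.7 after knockout, and at 16.6, 16.9 and 15.1 and 9.79, 10.3 and 9.15 in the C91A line. Mutant libraries lay below all others, and the untreated knockout line and the double knockout (29.2, 25.0 and 28.0) lay above wild type. The changes were -1.45 (SE 0.09, adjusted p = 1.2e-17), -0.74 (SE 0.09, adjusted p = 1.0e-08) and, from knockout to double knockout, 1.26 (SE 0.09, adjusted p = 2.0e-15). Egln1, the main hydroxylase of HIF in oxygen, did not pass after knockout (-0.13, SE 0.08, adjusted p = 0.15) and was slightly higher in the C91A mutant (0.22, SE 0.07, adjusted p = 0.0094), a call lost without replicate 2 of the untreated line (0.16) or replicate 3 of the mutant (0.15).

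Among the 10 hypoxia targets, 4 fell, 1 rose and 5 did not pass with each allele. Of all tested genes, 30.3% fell and 31.3% rose after knockout, and 26.4% fell and 28.6% rose in the C91A mutant. Ankrd37, an ankyrin repeat gene induced by HIF, went from 5.80, 5.46 and 5.85 to 2.16, 2.25 and 2.77 CPM (-1.22, SE 0.18, adjusted p = 1.9e-07) and from 5.90, 5.10 and 5.21 to 2.70, 1.91 and 2.96 (-1.08, SE 0.17, adjusted p = 9.7e-07); its exons overlap Lrp2bp and Ufsp2 on the opposite strand. Mxi1, an antagonist of MYC, fell in both (-0.46, SE 0.07, and -0.50, SE 0.08). Vegfa, the growth factor of blood vessels, went from 72.4, 72.2 and 72.8 to 54.8, 63.3 and 58.4 CPM with knockout (-0.31, SE 0.06, adjusted p = 1.0e-05), without overlap. In the C91A line it stood at 70.7, 63.9 and 70.0 without and 69.9, 72.6 and 68.3 with the drug, which overlap (0.05, SE 0.05, adjusted p = 0.48).

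P4ha1 and P4ha2 encode collagen prolyl hydroxylases. P4ha1 stood at 114, 109.9 and 113 before and 102, 104 and 108 CPM after knockout (-0.10, SE 0.05, adjusted p = 0.096), a change that passed with only the groups compared (-0.12, adjusted p = 0.0158 by edgeR), and went from 86.9, 83.6 and 78.7 to 55.0, 51.8 and 51.9 in the C91A line (-0.65, SE 0.05, adjusted p = 1.6e-13). P4ha2 went from 26.7, 27.7 and 24.9 to 18.5, 23.0 and 21.7 with knockout (-0.33, SE 0.08, adjusted p = 0.00052) and stood at 30.4, 29.9 and 28.4 and 29.5, 33.5 and 31.2 in the C91A line (0.08, SE 0.07, adjusted p = 0.34). C91A mutant libraries were the lowest of all for P4ha1, and knockout libraries for P4ha2. Ndrg1, a stress gene induced by hypoxia, rose from 57.6, 57.4 and 59.2 to 78.5, 83.8 and 79.9 CPM (0.47, SE 0.06, adjusted p = 3.3e-09) and from 66.7, 67.1 and 66.5 to 80.5, 96.0 and 89.8 (0.41, SE 0.06, adjusted p = 4.6e-08), and stood at 38.9, 41.3 and 42.2 in the double knockout, the lowest group and lower than in the knockout (-0.98, SE 0.06, adjusted p = 1.5e-17). Kdm3a, a histone demethylase, was lower in the C91A mutant (-0.17, SE 0.05, adjusted p = 0.0042) and not called after knockout (0.02, SE 0.05). The first call was lost without replicate 2 of the untreated C91A line (-0.12). Bnip3, Higd1a and Car9 passed with neither allele. Car9, a carbonic anhydrase strongly induced by HIF in many tumours, stood at 1.41, 1.87 and 1.42 CPM before and 1.62, 1.45 and 0.842 after knockout and at 2.13, 2.46 and 2.63 in the C91A mutant.

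The difference between the 2 effects was tested in the same fit. After knockout minus in C91A, 11 members were lower and 8 higher, beside 13.8% and 12.2% of all genes, with a median of 0.01 beside -0.011. The lowest were Slc2a1 (-0.87, SE 0.06, adjusted p = 1.0e-13) and Pdk1 (-0.78, SE 0.08, adjusted p = 1.1e-10), and the highest were P4ha1 (0.55, SE 0.07, adjusted p = 2.8e-07) and Pdk2 (0.49, SE 0.17, adjusted p = 0.032). Slc2a1 and Eno3 were the 2 members called in opposite directions with the 2 alleles. Pfkfb3, Ankrd37, Pfkl and Ldha did not differ at the threshold (0.02, SE 0.08; -0.14, SE 0.26; -0.03, SE 0.07, and -0.12, SE 0.06), which does not show equal effects. Of the 19 differences, 12 passed under all 17 alternatives and 7 did not: Pfkm, Aldoc, Pgk1, Pdk2, Pfkfb4, Egln1 and Kdm3a. Where their calls were lost, Pfkm stood at -0.25 and Egln1 at -0.29 (both without replicate 3 of the C91A mutant), Aldoc at 0.23 to 0.28, Pgk1 at 0.26 to 0.29, Pdk2 at 0.36 to 0.50, Pfkfb4 at -0.67 to -0.49 and Kdm3a at 0.14 to 0.20. The count of 8 higher became 5 without replicate 3 of the untreated knockout line or replicate 3 of the knockout, and 4 without replicate 2 of the C91A mutant.

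The double knockout was compared with the BAP1 knockout, whose libraries also enter the knockout comparison above, and with wild type. Against the knockout 16 members were higher and 13 lower, beside 32.6% and 30.6% of all genes, with a median of 0.03 beside 0.034. The counts were 13 and 13 without replicate 1 of the knockout, 13 and 14 without replicate 2 of the double knockout, and 12 and 12 without its replicate 3. The highest were Pdk1, Egln3 and Pfkfb4 and the lowest Eno2, Pfkfb3, Ldhb and Ndrg1, with the values given above. By role, 5 of 8 upper glycolysis members were higher and 2 lower, and the 5 became 3 without replicate 2 or replicate 3 of the double knockout. In lower glycolysis none was higher and 6 of 10 were lower. Among pyruvate genes 4 of 7 were higher and 2 lower, and among hypoxia targets 5 of 10 were higher and 1 lower. Hk2, Pfkl, Gapdh, Pdk2 and Kdm3a lost their calls under at least 1 alternative, and the other 24 called members kept theirs. Gapdh (-0.35, SE 0.15, adjusted p = 0.043) lost it under 6 of 11 alternatives: with DESeq2 (-0.35), with only the groups compared (-0.33), with rare genes kept in (-0.35), and without replicate 3 of the knockout (-0.27) or replicate 1 (-0.31) or 3 (-0.37) of the double knockout. Each of the others lost its call with some single libraries left out: Hk2 (0.12) at 0.09 to 0.13, Pfkl (0.14) at 0.08 to 0.12, Pdk2 (0.29) at 0.20 to 0.32 and Kdm3a (0.14) at 0.12 to 0.13. Between these libraries the marker sums also differed. Fibroblast markers summed to 59.6 to 65.5 CPM in the knockout and 104 to 105 in the double knockout, endoderm markers to 125 to 136 and 201 to 223, and stem cell markers to 3617 to 3759.7 and 4417 to 4638. Trophoblast markers summed to 415 to 422 and 285 to 353, neuroectoderm markers to 136 to 148 and 114 to 129, and mesoderm markers to 15.5 to 19.2 and 27.5 to 33.1. Without Krt18 the trophoblast sums were 147 to 156 and 148 to 176, which overlap. Without Nes the neuroectoderm sums were 86.8 to 92.3 and 87.5 to 98.1, which also overlap. The other sums kept their direction without their most abundant marker. Their part in the changes was not tested.

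Against wild type, 25 members were lower and 6 higher in the double knockout, beside 27.1% and 26.2% of all genes, with a median of -0.31 beside 0.0063. The lowest were Ndrg1, at 38.9, 41.3 and 42.2 against 80.8, 85.9 and 80.2 CPM (-1.01, SE 0.06, adjusted p = 1.9e-18), and Aldoc, at 25.8, 29.0 and 30.8 against 59.9, 58.5 and 54.1 (-1.002, SE 0.07, adjusted p = 6.2e-16). The highest were Pfkp, at 198, 199 and 214 against 138, 141 and 148 (0.52, SE 0.04, adjusted p = 1.5e-13), and Egln3 (0.45, SE 0.08, adjusted p = 4.0e-06). In lower glycolysis 8 of 10 were lower, and all 7 pyruvate genes were lower, among them Pdk1 (-0.29, SE 0.05, adjusted p = 2.2e-06) and Slc16a3 (-0.35, SE 0.05, adjusted p = 6.3e-07). Pkm was also lower, at 1333, 1509.8 and 1453 against 1742, 1887 and 1758 CPM (-0.33, SE 0.04, adjusted p = 4.2e-08), and Vegfa slightly so (-0.17, SE 0.05, adjusted p = 0.0066). Slc2a1 was slightly higher (0.12, SE 0.04, adjusted p = 0.024), a call lost without replicate 1 of wild type or replicate 2 or 3 of the double knockout (0.07 to 0.10). The calls of Car9 (-0.63) and Ankrd37 (-0.34) were also lost, under 7 and 9 of 11 alternatives, at -0.76 to -0.37 and -0.36 to -0.24. Fibroblast markers summed to 104 to 105 CPM in the double knockout and 59.9 to 62.5 in wild type, where trophoblast markers summed to 427 to 453, endoderm markers to 235 to 239, stem cell markers to 3778 to 3983, neuroectoderm markers to 114 to 124 and mesoderm markers to 30.1 to 36.0. Without Lama1, endoderm markers summed to 50.2 to 54.5 in the double knockout and 32.2 to 33.9 in wild type. That order is opposite to the full endoderm sums. Their part was not tested.

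**Figure D5:**
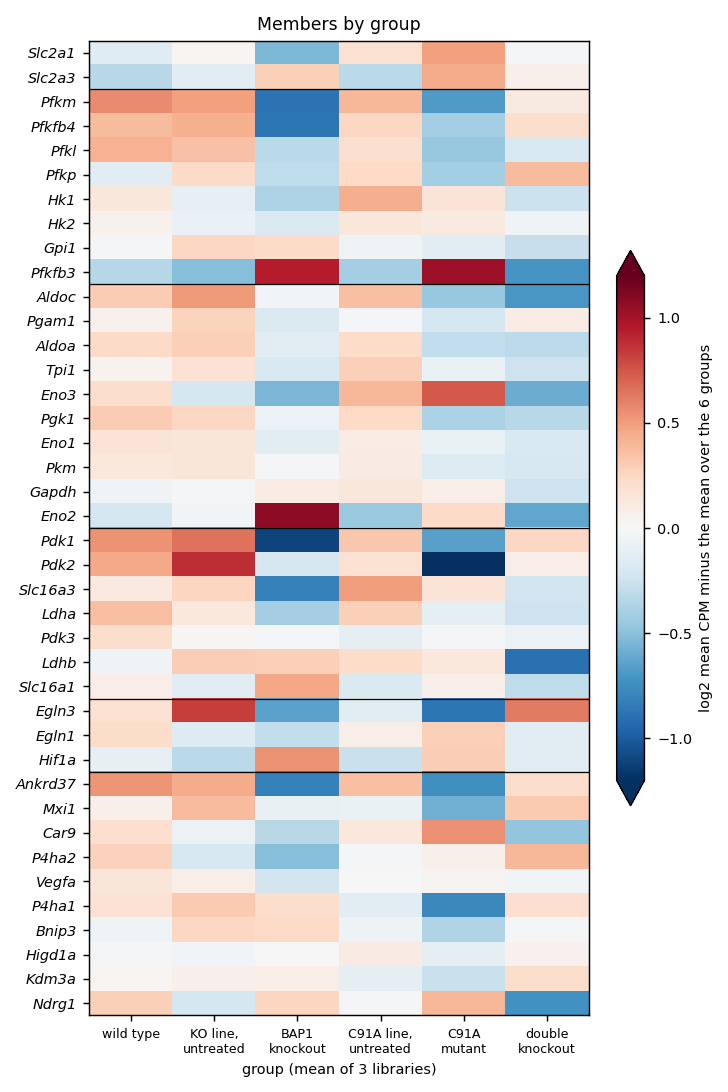
Log2 mean CPM of each member in each group minus its mean over the 6 groups (colour scale), with members in rows by role and n = 3 per group. Pdk1, Pfkm and Ankrd37 are low in both mutants and near or above average in the other 4 groups, whereas Aldoa, Pgk1 and Aldoc are low in the C91A mutant and the double knockout.

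The untreated lines also differed from wild type. These comparisons and the previous one share the wild-type libraries. Marker sums, given above for each group, differed too: endoderm and fibroblast sums were lower in both untreated lines than in wild type, and the trophoblast sum was lower in the untreated knockout line and higher in the untreated C91A line. Their part was not tested. In the untreated knockout line 13 members were higher and 11 lower, beside 18.5% and 20.8% of all genes, with a median of 0.02. The counts were 9 and 9 without replicate 3 of wild type, and 11 and 11 without replicate 3 of the line. Egln3 (0.64, SE 0.07, adjusted p = 2.6e-09) and Pdk2 (0.43, SE 0.09, adjusted p = 0.00021) were the highest and Ndrg1 (-0.50, SE 0.06, adjusted p = 6.8e-10) and P4ha2 (-0.46, SE 0.07, adjusted p = 1.0e-06) the lowest. Hif1a (-0.22, SE 0.05, adjusted p = 0.0012) and Ldha (-0.24, SE 0.04, adjusted p = 7.9e-06) were lower, Slc2a1 was higher (0.17, SE 0.04, adjusted p = 0.0021), and Pdk1 (0.11, SE 0.05), Pkm (0.02, SE 0.04) and Vegfa (-0.06, SE 0.05) did not pass, although Pdk1 did under 4 of 11 alternatives (0.12 to 0.14). Of these 24 calls 16 held under all 11 alternatives, and Hk2 (-0.14, SE 0.05) was among the 8 that did not, lost without replicate 3 of wild type (-0.09) or replicate 1 (-0.11) or 2 (-0.13) of the line.

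In the untreated C91A line 6 members were higher and 13 lower than in wild type, beside 13.4% and 14.2% of all genes, with a median of -0.07. Slc16a3 (0.38, SE 0.05, adjusted p = 3.4e-07) and Pfkp (0.37, SE 0.04, adjusted p = 7.4e-09) were the highest and Pdk3 (-0.32, SE 0.07, adjusted p = 0.00033) and Egln3 (-0.31, SE 0.08, adjusted p = 0.0038) the lowest. Pdk1 was lower (-0.21, SE 0.05, adjusted p = 0.0007) and Slc2a1 higher (0.33, SE 0.04, adjusted p = 2.9e-07), while Ldha (-0.07, SE 0.04), Pkm (-0.03, SE 0.04) and Hk2 (0.08, SE 0.05) did not pass. Of 19 calls 14 held under all 11 alternatives. The other 5 were lost under some alternatives, each of them with single libraries left out: Hif1a (-0.16) at -0.16 to -0.10, Vegfa (-0.15) at -0.15 to -0.10, Pfkm (-0.17) at -0.16 to -0.14, Eno2 (-0.24) at -0.23 to -0.16 and Pdk2 (-0.28) at -0.27 to -0.19. No member differed 2-fold between either untreated line and wild type.

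Genes around these 40 in the same pathways, listed apart from them, did not all move the same way. Of 25 other glycolysis isozymes and regulators 20 were tested. After knockout 11 fell and 4 rose, beside 30.3% and 31.3% of all tested genes. Ldhd, a D-lactate dehydrogenase, fell from 6.95, 6.02 and 5.38 CPM in the untreated line (-2.75, SE 0.24, adjusted p = 6.4e-13). Pklr, the liver pyruvate kinase, had the larger fitted change but is rare, at 1.58, 1.59 and 1.37 CPM before and 0, 0.132 and 0.181 after knockout, so no fold is given. In the C91A mutant 10 of the 20 fell and 3 rose, beside 26.4% and 28.6% of all genes. Against the knockout, 11 were higher and 4 lower in the double knockout, beside 32.6% and 30.6% of all genes.

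Of 37 further HIF pathway and hypoxia-induced genes, 18 rose and 11 fell after knockout, beside 31.3% and 30.3% of all tested genes. In the C91A mutant 13 rose and 10 fell, beside 28.6% and 26.4% of all genes. In the double knockout 11 were higher and 16 lower than in the knockout, beside 32.6% and 30.6% of all genes. Epas1, which encodes HIF-2 alpha, moved opposite to Hif1a. It went from 66.3, 69.7 and 75.5 to 17.4, 17.4 and 15.9 CPM with knockout (-2.07, SE 0.08, adjusted p = 2.8e-24), from 46.1, 49.4 and 46.4 to 19.7, 21.2 and 19.9 in the C91A line (-1.23, SE 0.08, adjusted p = 2.1e-17), and stood at 67.0, 68.1 and 74.6 in the double knockout. Bhlhe41, a repressor induced by hypoxia, rose from 39.6, 40.5 and 41.4 to 165, 170.3 and 163 (2.04, SE 0.08, adjusted p = 2.8e-24) and from 33.4, 20.7 and 28.1 to 67.5, 59.1 and 60.4 (1.21, SE 0.09, adjusted p = 2.1e-15), and stood at 50.1, 45.4 and 46.6 in the double knockout. The list median was 0.21 after knockout, against -0.31 for the 40 members.

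The pentose phosphate pathway branches off at glucose 6-phosphate. After knockout 5 of its 11 genes rose and 3 fell, beside 31.3% and 30.3% of all tested genes. In the C91A mutant 1 rose and 3 fell, beside 28.6% and 26.4% of all genes. The first counts were 4 and 4 without replicate 3 of the untreated line or of the knockout, and the single rise became 0 to 2 with 1 library left out. H6pd, its enzyme in the endoplasmic reticulum, had the largest change (-0.81, SE 0.07, adjusted p = 6.3e-13). Among 12 genes for pyruvate entry into mitochondria 11 were tested. Beside the same shares of all genes, 3 rose and 3 fell after knockout, and 2 rose and 3 fell in the C91A mutant. Pdp2, a phosphatase that counters the PDKs, fell in both (-0.85, SE 0.09, and -0.84, SE 0.09). Pdha1, the target subunit of the PDKs, rose from 326, 319 and 329.8 to 481, 495 and 490.3 CPM (0.59, SE 0.04, adjusted p = 3.2e-16) and from 383, 396 and 388 to 489.7, 474 and 488 (0.31, SE 0.04, adjusted p = 8.9e-09). It stood at 246, 248 and 229 in the double knockout, the lowest group and lower than in the knockout (-1.02, SE 0.04, adjusted p = 7.8e-24).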

How the data were processed

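Polyadenylated RNA of 18 libraries was sequenced as single 50-base reads, per the labels. Reads were aligned with GSNAP to GRCm38, per the submitters' processing notes; their versions and the use of strand are not in the sources used here. The deposited files give, per the file headers, a count of uniquely aligned reads per gene and an RPKM adjusted by size factors (nRPKM). The deposited RPKM were used only to compare levels between genes and for isozyme shares.

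The deposited counts were filtered with filterByExpr, leaving 16875 genes, and scaled by TMM. edgeR 4.0.16 in R 4.3.3 (with limma 3.58.1) then gave quasi-likelihood tests from a fit of 1 mean per group, in which all 18 libraries shared the spread. The threshold was a Benjamini-Hochberg adjusted p under 0.05 over all genes tested. CPM are counts per 1 M, scaled by TMM, and SE is the log2 fold change over the square root of F. The test was run on counts simulated from its own fitted spread with few genes changed. In the data many genes changed, so that run does not check the scaling. Libraries held 8.11 to 23.0 M (megacounts), and replicate pairs differed beyond counting error (chi-square per degree of freedom 1.77 to 5.78).

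Of the genes listed, 31049 had a name in RefSeq's table for GRCm38.p6; promoters are also RefSeq's, and shared 50-base stretches come from GENCODE transcripts. Replicates were numbered in accession order and pair nothing. Members and lists were chosen with earlier results of these data known. Every member may be named; library values were given for 7 fixed genes (Hif1a, Slc2a1, Hk2, Pkm, Ldha, Pdk1, Vegfa) and for the most changed called members of each comparison, and others were added after their values were seen. Alternatives were RLE and the authors' size factors, DESeq2 1.42.0, no filter, only the groups compared, and leaving out each replicate.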

Additional observations from a re-analysis of the deposited data

Results flagged for a closer look

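The effects of knockout and of C91A, each against its own untreated line, differed by the test of the difference for 19 of the 40 members. No explanation was tested for any of them. Values are log2 differences, knockout effect minus C91A effect.

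Below 0 were Slc2a1 (-0.87), Pdk1 (-0.78), Slc16a3 (-0.72), Egln3 (-0.71), Eno3 (-0.69), Pfkfb4 (-0.63), P4ha2 (-0.42), Vegfa (-0.36), Egln1 (-0.35), Slc2a3 (-0.35) and Pfkm (-0.30). Slc2a1 fell after knockout and rose in C91A, as did Eno3. Slc2a3 rose in both, less after knockout, whereas Pdk1, Slc16a3, Egln3, Pfkfb4 and Pfkm fell in both and further after knockout. P4ha2 and Vegfa were called lower after knockout and not called in C91A, and Egln1 was called higher in C91A and not after knockout.

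Above 0 were P4ha1 (0.55), Pdk2 (0.49), Eno2 (0.43), Slc16a1 (0.36), Hif1a (0.30), Pgk1 (0.30), Aldoc (0.28) and Kdm3a (0.19). Eno2, Slc16a1 and Hif1a rose in both and further after knockout. Pdk2, Pgk1 and Aldoc fell in both and further in C91A, while P4ha1 and Kdm3a were called lower in C91A and not after knockout.

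The untreated lines started from unlike levels for some of these genes. Slc16a3 stood at 98.9, 99.2 and 95.5 CPM in the untreated knockout line and 119, 113 and 115 in the untreated C91A line, Egln3 at 32.1, 30.7 and 31.5 and 16.6, 16.9 and 15.1, and Pdk2 at 22.9, 24.6 and 23.4 and 17.2, 13.9 and 12.4. Groups of 3 libraries were not searched for single outlying values.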

How the results depend on the processing

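No called value changed sign under any alternative, but the balance of higher and lower members did not hold in the double knockout against the knockout (16 and 13, with 13 and 14 without replicate 2 of the double knockout) or in the untreated knockout line against wild type (13 and 11, with 9 and 9 without replicate 3 of wild type). After knockout all 28 called members kept their calls in all 11 alternatives, and in the C91A mutant 27 of 29 did. Calls were gained by Hk2, P4ha1 and Pgam1 after knockout and by Gpi1 in C91A under some alternatives. Of the higher and lower counts over all 40 members, 1 moved by over 1.5 times, that of members higher after knockout than in C91A: 8 as reported, and 4 to 8 with 1 library left out (4 without replicate 2 of the C91A mutant); the cause was not tested. Among counts by role in the report, upper glycolysis members higher in the double knockout than in the knockout went from 5 to 3 without replicate 2 or 3 of the double knockout. Members sharing at least 20% of their 50-base stretches were left out as an alternative added after seeing the data, and 6 members rose and 19 fell after knockout among the other 32, and 9 and 17 in C91A. Marker sums without the most abundant marker were also added after seeing the data. No alternative moved the median of all genes past 0.069, reached with no filter on low counts in the double knockout against the knockout. TMM, RLE and DESeq2 scale libraries so that most genes show little change. This median therefore cannot show a shift common to most genes. No paired analysis was possible because the labels give no replicate numbers. The knockout's shallower libraries (the lowest 8.11 M (megacounts)) limit what can be said of members near 1 to 5 CPM, namely Car9, Pgam1, Pfkfb4, Ankrd37 and Bnip3.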
